A study of Rattus norvegicus with 6 samples.

Results

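The genes described here are the 9 transcripts that encode the enzymes of serine synthesis and of the folate one-carbon cycle: Phgdh, Psat1, Psph, Shmt1, Shmt2, Mthfd1, Mthfd2, Mthfd1l and Aldh1l2. They were taken by symbol from a table of 40456 genes, all 9 were found, and all 9 passed the filter on low counts that left 14216 genes for testing. The cells were H9c2, an established line of rat cardiomyoblasts with no genetic change given in the labels. In every library they had been differentiated for 5 days in 1% serum with 1 µM retinoic acid and then transfected for 24 h. The control group (3 libraries) received 25 nM of a negative control gapmer and the knockdown group (3 libraries) received 25 nM of a gapmer that targets Tug1, a long non-coding RNA. A gapmer is a short antisense oligonucleotide with locked nucleic acid ends, and RNase H cuts the RNA that it pairs with. The labels name a single gapmer for each group. An effect of losing Tug1 therefore cannot be told apart from another effect of the gapmer that targets it. Both gapmers are shown 5′ to 3′ in lower case because they are what separates the groups.
Tug1 gapmer: attcagtagacagcta
Negative control gapmer: gctcccttcaatccaa

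Cells make serine from a glycolytic intermediate in 3 steps, and serine then gives a carbon to tetrahydrofolate and becomes glycine. Folate enzymes in the mitochondrion carry that carbon to formate, which leaves for the cytosol, and cytosolic enzymes use it to build purines, thymidylate and methionine. Several of these genes are known targets of the stress-responsive transcription factor ATF4, and the pathway is best known from dividing cells.

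Total counts were 12978548 to 13544337 per library. Levels are in counts scaled to library size (CPM) after scaling of the libraries by the trimmed mean of M-values (TMM), and SD values are over the 3 libraries of a group. Tug1 itself was at 54.7, 52.0 and 55.4 CPM in the control libraries (replicates 1 to 3) against 11.9, 11.2 and 12.5 CPM in the Tug1 gapmer libraries (replicates 1 to 3), so the deposited values follow the labels. Markers were fixed by class, and those of skeletal muscle were all detected while most cardiac ones were not. All 7 skeletal muscle markers were tested, 6 rose and Myod1 fell, with a summed level of 894 to 903 CPM with the control gapmer and 1315 to 1397 CPM with the Tug1 gapmer. Of 8 cardiac markers, 5 (Myh6, Myh7, Nppb, Nkx2-5 and Ryr2) had at most 3 counts in every library, and Nppa had at most 4. Tnnt2, the cardiac troponin T gene that immature muscle also expresses, and Actc1, cardiac actin, were the other two: both were detected and called higher, at log2 fold changes of 0.24 and 0.97. The cardiac list summed to 345 to 379 CPM with the control gapmer and 407 to 457 CPM with the Tug1 gapmer. Most of this was Tnnt2 alone, at 335 to 369 CPM with the control gapmer and 391 to 439 CPM with the Tug1 gapmer. Of 6 fibroblast markers 2 rose and 2 fell, with sums of 43426 to 44802 CPM in controls and 40850 to 43661 CPM after knockdown. Most of each sum came from the collagen genes Col1a1, Col1a2 and Col3a1, at 21196, 14925 and 6530 CPM in control replicate 1. Pdgfra, on the same list, had only 3 to 8 counts per library and was not tested. The immune list summed to 10.8 to 12.3 CPM in controls and 15.7 to 17.3 CPM after knockdown, and Cd68 rose. The endothelial list summed to at most 3.70 CPM in any library. The part of these shifts in the values below was not tested, and in bulk RNA a change in the mix of cells cannot be told apart from a change within cells.

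The 9 transcripts did not move as a block: Phgdh rose 2.10-fold, Mthfd1l and Aldh1l2 rose less, and Psat1, Shmt2, Mthfd1 and Mthfd2 fell. By the quasi-likelihood test of edgeR, with p-values adjusted by Benjamini-Hochberg over all tested genes, 7 of the 9 passed an adjusted p of 0.05, 3 higher and 4 lower. Among all tested genes 61.7% passed, 30.8% higher and 30.9% lower, and the count of 7 in 9 is read against that background rather than as a result about these enzymes. The control and knockdown libraries did not overlap for 6 of the 9, against 65.6% of all tested genes. The median log2 fold change of the 9 was -0.10, beside 0.00 for all tested genes. An adjustment for genomic length took from each library a trend, on the span of the gene, in deviations from each gene's mean over the libraries. It can also remove a true difference between the groups that goes with length. With it, 4 of the 9 were called (1 higher, 3 lower). Of all genes with a span 62.2% were then called, 30.4% higher and 31.8% lower.

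**Figure D1:**
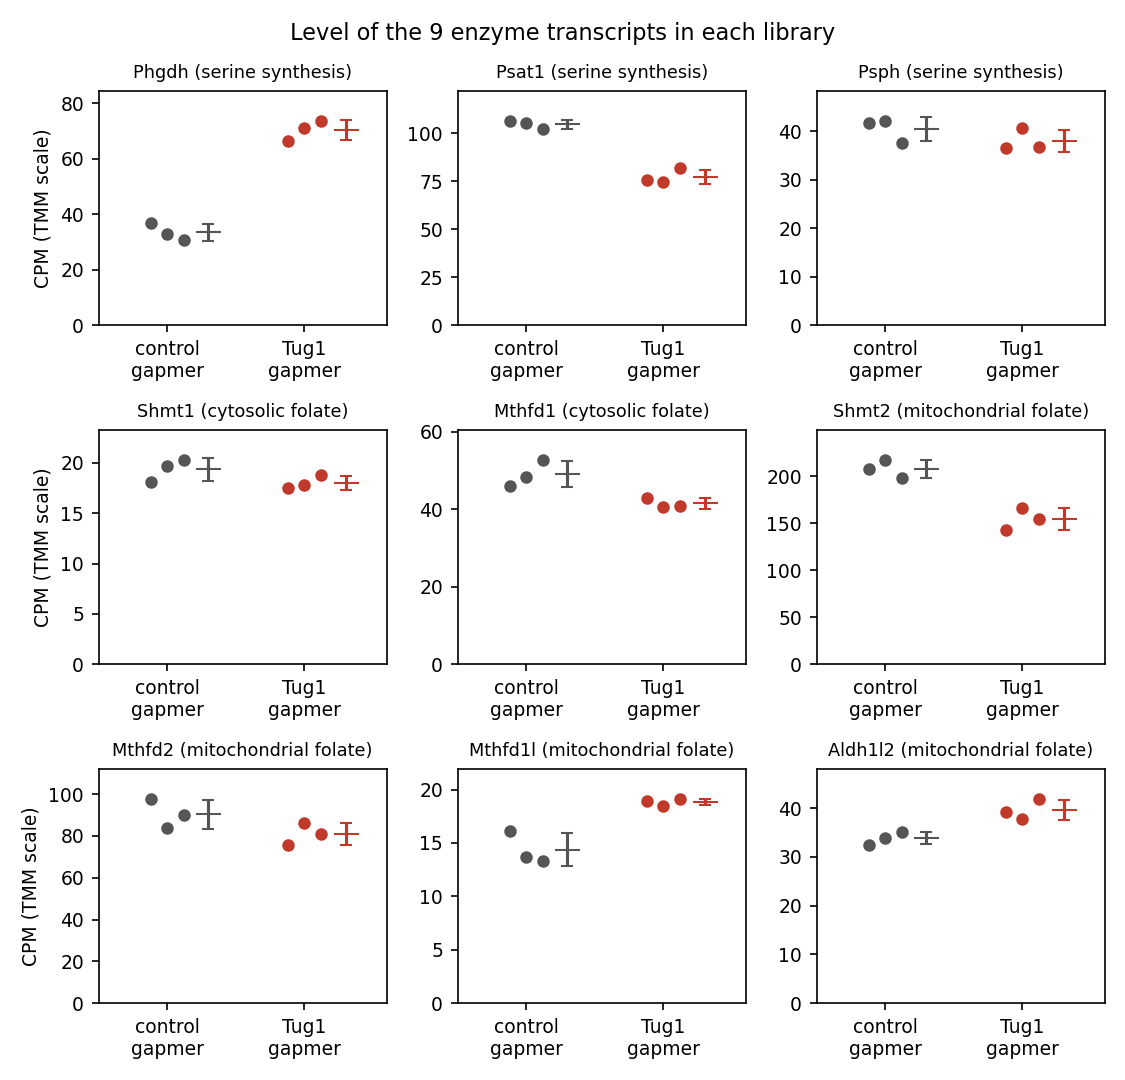
Level of each transcript in CPM on the TMM scale (y axis from 0) in the 3 control gapmer libraries (grey) and the 3 Tug1 gapmer libraries (red). Points are libraries and the bar beside them is the mean with its SD; Phgdh stands at 30.5 to 36.7 CPM in controls and 66.3 to 73.6 CPM after knockdown.

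The serine synthesis enzymes, which act one after another on the same intermediates, gave unlike values. Phgdh encodes phosphoglycerate dehydrogenase, which takes 3-phosphoglycerate out of glycolysis in the first step of the pathway. It was counted 479, 426 and 396 times in the control libraries (replicates 1 to 3) against 915, 961 and 974 times in the Tug1 gapmer libraries (replicates 1 to 3). The lowest knockdown library held 66.3 CPM and the highest control library 36.7 CPM, so the groups were far apart. Its mean went from 33.4 ± 3.12 CPM to 70.3 ± 3.68 CPM (SD, n = 3). The log2 fold change was 1.07 (adjusted p 8.90e-12 by edgeR, SE 0.070), and the 95% interval of the fold was 1.90 to 2.33. In absolute size this change stood at percentile 91.7 of the tested genes, the highest place among the 9.

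Psat1 encodes phosphoserine aminotransferase, the next step, which takes its nitrogen from glutamate. It stood at 106, 105 and 102 CPM in the control libraries (replicates 1 to 3) against 75.5, 74.6 and 81.7 CPM in the Tug1 gapmer libraries (replicates 1 to 3). All knockdown libraries were below all controls. The log2 fold change was -0.44 (adjusted p 3.17e-07 by edgeR, SE 0.0546), which is 73.9% of the control level. Within each library the ratio of Psat1 to Phgdh counts was 2.90, 3.19 and 3.35 under the control gapmer and 1.14, 1.05 and 1.11 under the Tug1 gapmer. This ratio does not depend on how the libraries are scaled, and the groups differed in it by -1.51 on the log2 scale, without overlap. Psph encodes phosphoserine phosphatase, the last step. It stood at 41.6, 42.1 and 37.6 CPM in controls and 36.6, 40.6 and 36.9 CPM after knockdown, and the groups overlapped. Its log2 fold change of -0.09 (edgeR adjusted p 0.287) did not pass, and the 95% interval of -0.24 to 0.06 leaves room for a small change either way.

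Promoter windows are shown for these 3 enzymes because they act in a single short pathway and yet gave unlike values: Phgdh rose, Psat1 fell and Psph did not pass the test. The windows come from RefSeq on the rat assembly GRCr8, run from 250 bases before to 50 bases after the annotated start, and matched 7 of the 9 genes. Capitals mark matches, on both strands, to 5 motifs. The C/EBP-ATF response element was searched as TGATGNAA and the antioxidant response element as TGACNNNGC. The E-box was searched as CACGTG. The GC box, which binds factors of the Sp family, was searched as GGGCGG. The CCAAT box, known from many housekeeping promoters, was searched by the letters of its name. Phgdh is at chr2:188624740-188625039 (minus strand), Psat1 at chr1:222645359-222645658 (minus strand) and Psph at chr12:32526841-32527140 (plus strand).
Phgdh: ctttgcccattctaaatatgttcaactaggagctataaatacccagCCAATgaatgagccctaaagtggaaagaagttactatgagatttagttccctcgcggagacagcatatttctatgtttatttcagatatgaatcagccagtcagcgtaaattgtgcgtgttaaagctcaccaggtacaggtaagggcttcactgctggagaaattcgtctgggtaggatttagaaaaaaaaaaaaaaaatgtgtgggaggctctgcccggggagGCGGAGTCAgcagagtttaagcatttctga
Psat1: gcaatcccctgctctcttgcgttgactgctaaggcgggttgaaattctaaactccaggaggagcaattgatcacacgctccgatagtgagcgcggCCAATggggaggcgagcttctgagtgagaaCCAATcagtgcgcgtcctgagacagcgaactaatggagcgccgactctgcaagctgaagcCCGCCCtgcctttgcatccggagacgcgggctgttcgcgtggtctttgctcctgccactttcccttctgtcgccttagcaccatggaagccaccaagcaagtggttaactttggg
Psph: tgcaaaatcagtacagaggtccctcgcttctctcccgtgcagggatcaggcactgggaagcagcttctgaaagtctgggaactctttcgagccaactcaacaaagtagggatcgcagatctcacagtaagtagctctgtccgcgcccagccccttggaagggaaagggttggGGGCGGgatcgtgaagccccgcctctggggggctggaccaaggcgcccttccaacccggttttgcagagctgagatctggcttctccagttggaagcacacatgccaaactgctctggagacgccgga
In the Phgdh window the match at bases 21 to 29 after the start is to the antioxidant response element on the opposite strand, and no other of the 7 windows held one. The letters are found in 12.1% of all 33469 promoter windows of this length. Psat1 had a pair of CCAAT boxes and a GC box, and Psph had a GC box. The C/EBP-ATF letters were in 0 of the 7 windows and in 3.98% of all windows. GC boxes were in 4 of the 7 (33.1% of all) and CCAAT boxes in 4 of the 7 (37.5% of all), and no matches overlapped in the 7 windows. These are matches of letters and say nothing of whether a factor binds.

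Serine hydroxymethyltransferase, which moves the carbon of serine to folate and yields glycine, has a cytosolic form (Shmt1) and a mitochondrial form (Shmt2). Shmt2 stood at 207, 217 and 198 CPM in the control libraries (replicates 1 to 3) against 143, 167 and 155 CPM in the Tug1 gapmer libraries (replicates 1 to 3). No library of the knockdown group reached the controls. Its log2 fold change was -0.42 (adjusted p 5.69e-07 by edgeR, SE 0.0549), or 74.6% of the control level. Shmt1 stood at 18.1, 19.7 and 20.3 CPM in controls and at 17.5, 17.8 and 18.8 CPM after knockdown, with overlapping groups. Its log2 fold change of -0.10 did not pass (edgeR adjusted p 0.324, 95% interval -0.29 to 0.08). The ratio of Shmt2 to Shmt1 counts was 11.4, 11.0 and 9.78 in the control libraries (replicates 1 to 3) against 8.19, 9.35 and 8.24 in the Tug1 gapmer libraries (replicates 1 to 3). The ratios did not overlap and differed by -0.32 on the log2 scale. With the length adjustment the difference was -0.21, and the groups then overlapped. Their windows are shown as a pair that catalyses the same reaction and differs in motif content: Shmt1 at chr10:45990292-45990591 and Shmt2 at chr7:65249518-65249817, both on the minus strand, with capitals as above.
Shmt1: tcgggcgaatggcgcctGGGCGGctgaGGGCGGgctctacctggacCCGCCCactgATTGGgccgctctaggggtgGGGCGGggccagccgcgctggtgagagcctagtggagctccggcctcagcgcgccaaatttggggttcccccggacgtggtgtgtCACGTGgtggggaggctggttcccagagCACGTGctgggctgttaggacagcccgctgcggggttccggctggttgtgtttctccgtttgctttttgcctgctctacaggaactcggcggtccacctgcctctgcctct
Shmt2: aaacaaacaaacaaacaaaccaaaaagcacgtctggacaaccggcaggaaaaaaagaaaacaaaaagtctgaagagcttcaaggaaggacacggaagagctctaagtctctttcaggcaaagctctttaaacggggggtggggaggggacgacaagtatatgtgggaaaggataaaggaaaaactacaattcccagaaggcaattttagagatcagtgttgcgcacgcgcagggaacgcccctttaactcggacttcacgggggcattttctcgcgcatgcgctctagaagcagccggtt
Shmt1 held 7 matches, among them a pair of E-boxes, and was the only one of the 7 windows with an E-box, which 6.42% of all windows hold. Shmt2 held 0 of the 5 motifs. GC content was 67.3% for Shmt1 and 47.7% for Shmt2, beside a median of 51.7% over all windows.

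The other cytosolic enzyme, Mthfd1, interconverts the folate forms that feed purines and thymidylate. It stood at 46.1, 48.2 and 52.7 CPM in the control libraries (replicates 1 to 3) against 43.0, 40.7 and 40.8 CPM in the Tug1 gapmer libraries (replicates 1 to 3). The groups did not overlap. Its log2 fold change was -0.24 (adjusted p 0.00347 by edgeR, SE 0.0668). Mthfd1 is a long gene, at percentile 80.2 of genomic span, and with the length adjustment its log2 fold change was -0.37, further from 0.

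The remaining mitochondrial enzymes split. Mthfd2, the dehydrogenase and cyclohydrolase known for its induction in growing cells, stood at 97.6, 83.8 and 89.8 CPM in controls and 75.7, 86.3 and 81.0 CPM after knockdown. Knockdown replicate 2 lay above control replicate 2, so the groups overlapped. The log2 fold change was -0.16 (adjusted p 0.0330 by edgeR, SE 0.0627). The call was lost with the length adjustment (-0.09, edgeR adjusted p 0.239). It was also lost without control replicate 1 (-0.10, edgeR adjusted p 0.231), control replicate 3 (-0.16, 0.0601), knockdown replicate 1 (-0.11, 0.162) or knockdown replicate 3 (-0.16, 0.0745). Its relative Mthfd2l, with 6.55 ± 0.250 CPM under the control gapmer and 7.82 ± 0.750 CPM under the Tug1 gapmer (SD, n = 3), did not pass (log2 fold change 0.25, edgeR adjusted p 0.117).

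Mthfd1l, the mitochondrial synthetase that releases formate, stood at 16.1, 13.7 and 13.3 CPM in the control libraries (replicates 1 to 3) against 18.9, 18.5 and 19.1 CPM in the Tug1 gapmer libraries (replicates 1 to 3). Every knockdown library was above every control. It rose by a log2 fold change of 0.39 (adjusted p 0.00141 by edgeR, SE 0.0979). Its gene is the longest of the 9 and in the top 10% of tested genes by genomic span, and with the length adjustment the value was 0.08 (adjusted p 0.469 by edgeR, SE 0.0973), no longer called. Aldh1l2 encodes the mitochondrial enzyme that burns formyl-folate to carbon dioxide and yields NADPH. It stood at 32.5, 33.9 and 35.1 CPM in controls and at 39.3, 37.7 and 41.8 CPM after knockdown, without overlap. Its log2 fold change of 0.23 (adjusted p 0.00731 by edgeR, SE 0.070) was 0.13 with the length adjustment (edgeR adjusted p 0.0968), no longer called. Its gene is at percentile 73.9 of span.

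Set against the cytosolic enzyme Mthfd1, the mitochondrial transcripts gave unequal ratios. The ratio of Mthfd1l to Mthfd1 counts was 0.349, 0.284 and 0.252 in the control libraries (replicates 1 to 3) against 0.440, 0.455 and 0.469 in the Tug1 gapmer libraries (replicates 1 to 3), without overlap. The ratio of Mthfd2 to Mthfd1 counts was 2.12, 1.74 and 1.71 in controls and 1.76, 2.12 and 1.99 after knockdown, and these overlapped. The differences were 0.64 and 0.08 on the log2 scale. With the length adjustment they were 0.46, still without overlap, and 0.29, with overlap. The ratios are descriptions and no test was run on them, and ratios of counts are not divided by transcript length.

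**Figure D2:**
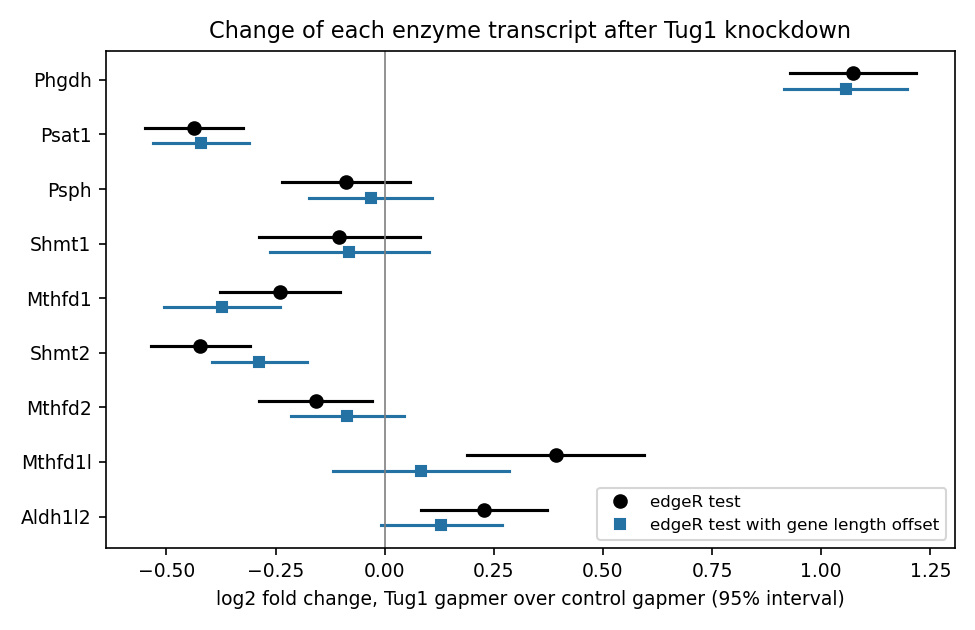
Log2 fold change of each transcript, Tug1 gapmer over control gapmer, with its 95% interval, from the edgeR test (black circles) and from the same test with the gene length adjustment (blue squares). Phgdh is at 1.07 and 1.06, while the intervals of Mthfd2, Mthfd1l and Aldh1l2 reach 0 once length is adjusted for.

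**Figure D3:**
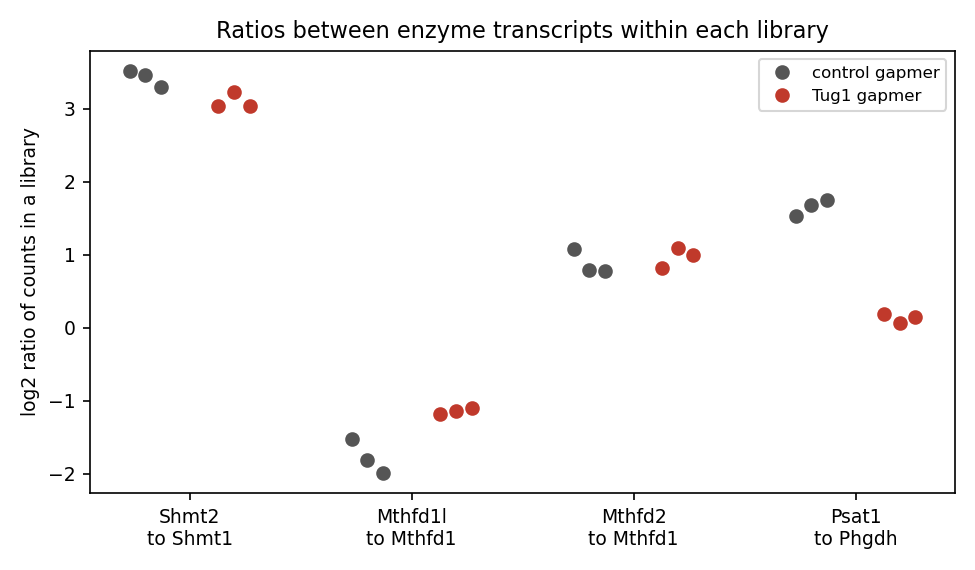
Log2 of the ratio of counts of pairs of enzyme transcripts in each library (y axis), for control gapmer (grey) and Tug1 gapmer (red) libraries, 3 points per group. The Psat1 to Phgdh ratio differs most between the groups, by -1.51 on the log2 scale, and the Mthfd2 to Mthfd1 ratios overlap.

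Genes around the pathway were then counted, from lists by function, against the 61.7% of all tested genes that were called. The lists were chosen with earlier results of these data known, so these counts are descriptions and not blind comparisons. In the folate cycle and folate transport, 9 of 14 tested genes were called, 3 higher and 6 lower, with a median log2 fold change of 0.08. Slc19a1, the reduced folate carrier, went from 36.6 ± 1.29 to 18.4 ± 2.17 CPM (SD, n = 3), with a difference of -0.99 on the log2 scale (adjusted p 9.08e-10 by edgeR). Tyms, which uses a folate carbon to make thymidylate, fell by 0.79 on the log2 scale, and Mtr, which uses it to make methionine, fell by 0.63.

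Purine synthesis, the main consumer of formyl-folate, was mostly lower: 11 of 12 tested genes were called, 10 lower and 1 higher, with a median log2 fold change of -0.49. Ppat, the committing step, stood at 66.7, 63.6 and 65.9 CPM in controls and 31.2, 30.3 and 26.2 CPM after knockdown. The groups were far apart, and the log2 fold change was -1.16 (adjusted p 2.18e-12 by edgeR, SE 0.0694). Impdh1, which opens the branch to guanine nucleotides, was at -0.91, and Adss2 (older symbol Adss), which opens the branch to adenine nucleotides, at -0.65, both called lower. Gmps rose by 0.21, and Atic, which uses a formyl group in the last steps, was at 0.02 and was not called. With the length adjustment 10 of 12 were called, all lower. Adss1 was left out because its symbol was not matched. If the row Adssl1, with 4.22 to 5.81 CPM under the control gapmer and 9.86 to 12.7 CPM under the Tug1 gapmer, is taken as Adss1, 12 of 13 were called, 10 lower and 2 higher.

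For glycine cleavage and serine or glycine metabolism, 7 of 14 tested genes were called, 4 higher and 3 lower, with a median of 0.08, and without control replicate 1 the count was 4. Gcsh, the carrier protein of the glycine cleavage system, fell by 0.69 on the log2 scale, and Sfxn3, of the family of mitochondrial serine carriers, by 0.27 (SE 0.0559). Dld, a subunit that glycine cleavage shares with other mitochondrial dehydrogenases, rose by 0.41. Of 6 tested serine and glycine transporters, 3 were called, 2 higher and 1 lower, and with the length adjustment 5 were, 2 higher and 3 lower. Slc1a5, a neutral amino acid transporter, went from 186 ± 8.24 to 61.3 ± 4.58 CPM (SD, n = 3), with a difference of -1.60 on the log2 scale (adjusted p 5.23e-16 by edgeR). The glycine transporter Slc6a9 went the other way, from 37.8 ± 2.55 to 83.4 ± 9.75 CPM (SD, n = 3), with a difference of 1.14 on the log2 scale (adjusted p 1.14e-11 by edgeR), and Slc38a2, a neutral amino acid carrier, rose by 0.14. Without control replicate 2 the Slc38a2 value was 0.09 and no longer called (edgeR adjusted p 0.0994).

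In the methionine cycle and transsulfuration, 6 of 10 tested genes were called, 4 higher and 2 lower, with a median of 0.06. Cbs, which joins serine to homocysteine, stood at 1.61, 1.78 and 2.31 CPM in controls and 7.25, 8.28 and 5.66 CPM after knockdown. It was low throughout, but the groups did not overlap, and its log2 fold change was 1.89 (adjusted p 4.92e-08 by edgeR, SE 0.209). Ahcy, which clears S-adenosylhomocysteine, fell by 0.43, while its relative Ahcyl1 rose by 0.91. All 8 glycolysis genes around 3-phosphoglycerate, the substrate of Phgdh, were called, 5 lower and 3 higher. Pgam1, which carries 3-phosphoglycerate further down glycolysis, fell by 0.60, and Eno1 fell by 0.53. The 3 called higher were Pgam2 (0.56), Eno3 (0.37) and Pkm (0.32). With the length adjustment 7 of the 8 were called, 3 higher and 4 lower. How reads shared with near-identical copies were counted is not given in the sources used here, so the values of Pgam1 and Eno1, which have pseudogene copies, are uncertain.

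**Figure D4:**
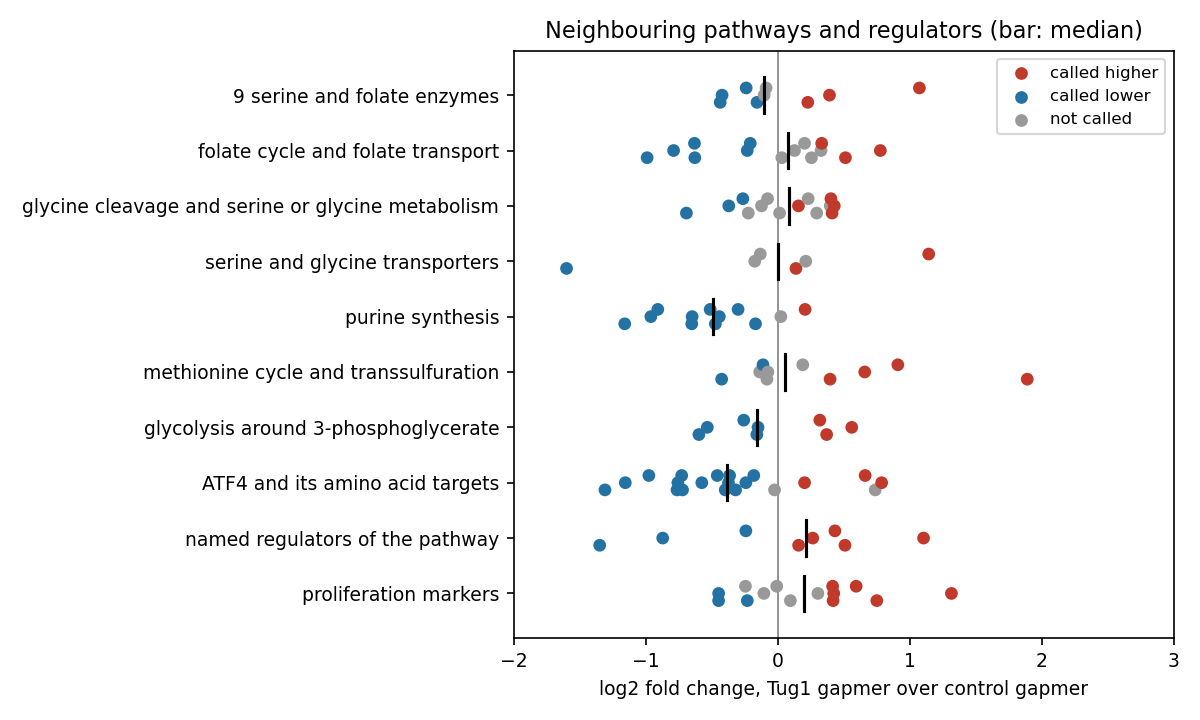
Log2 fold change (x axis) of the tested genes of each list, with those called higher in red, called lower in blue and not called in grey, and the median as a black bar. Purine synthesis and the ATF4 list have medians of -0.49 and -0.39, while the 9 serine and folate enzymes are spread from -0.44 to 1.07.

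Of the ATF4 list, which holds Atf4 and genes known to answer to it in amino acid shortage, 18 of 20 were called, 15 lower and 3 higher, with a median log2 fold change of -0.39. Asns, which makes asparagine, fell by 0.76. Aldh18a1, which opens proline synthesis, fell by 0.98, and the cationic amino acid transporter Slc7a1 fell by 1.31. The 3 called higher were Gdf15 (0.79), Atf5 (0.66) and Sesn2 (0.20). Gdf15 was low throughout, at 1.31 ± 0.261 CPM with the control gapmer and 2.26 ± 0.530 CPM with the Tug1 gapmer (SD, n = 3). Of the 9 enzymes, Psat1, Shmt2, Mthfd1 and Mthfd2 were called lower and Phgdh, Mthfd1l and Aldh1l2 higher. Psph and Shmt1 did not pass. The part of ATF4 in these values was not tested. Atf4 stood at 521, 518 and 506 CPM with the control gapmer and at 425, 447 and 434 CPM with the Tug1 gapmer, a log2 fold change of -0.24 (edgeR adjusted p 2.82e-05). With the length adjustment Atf4 was at -0.03 and not called (edgeR adjusted p 0.491), and 15 of the 20 were called, 11 lower and 4 higher.

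All 8 genes on the list of known regulators were called, 5 higher and 3 lower. With the length adjustment 7 of the 8 were called, 5 higher and 2 lower. Myc went from 52.5 ± 3.94 to 28.7 ± 2.18 CPM (SD, n = 3), with a difference of -0.87 on the log2 scale (adjusted p 8.58e-10 by edgeR), and Mycn was at -1.35. Eif2ak3, a kinase of the unfolded protein response, rose by 1.10, and Eif2ak4, Mtor and Keap1 rose by 0.51, 0.43 and 0.26. Nfe2l2, which encodes the factor known to bind antioxidant response elements, rose from 260 ± 7.07 to 290 ± 11.6 CPM (SD, n = 3), with a difference of 0.16 on the log2 scale (adjusted p 0.00501 by edgeR). Proliferation markers were mixed: 9 of 14 were called, 6 higher and 3 lower, and their summed level was 379 to 387 CPM with the control gapmer and 363 to 394 CPM with the Tug1 gapmer. Top2a was at 1.32 and Rrm2 at 0.59, both called higher, and Mcm2 was at -0.45, called lower. The part of these regulators and markers in the changes of the 9 enzymes was not tested.

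The genes most like Phgdh over the 6 libraries were sought among 9443 tested genes with a mean of at least 10 CPM, by the distance between log2 levels taken around each gene's mean. The nearest were Magi3 (distance 0.0972), Hira (0.134) and Snrnp70 (0.141), with log2 fold changes of 1.01, 1.05 and 1.14. With libraries in only 2 groups such likeness rests mostly on the size of the group difference. With the length adjustment these sizes moved apart for Magi3 (0.70) and Hira (0.85), while Snrnp70 was at 1.17 and Phgdh at 1.06.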

How the data were processed

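Poly-A RNA of H9c2 cells (RNA integrity numbers of 9 or higher, 500 ng input, stranded libraries, per the labels' protocols) was sequenced in 6 libraries. The submitters' processing notes name FastQC 0.11.7, fastp 0.14.1 and STAR 2.5; genome build, annotation, counting tool and use of strand are not given in the sources used here. The deposited values are whole-number counts for each gene and library, unscaled and unpooled, with 0 columns outside the 6 libraries. The labels do not say that replicates were separate cultures, so p-values measure only the spread between these libraries.

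Tests were run with edgeR 4.0.16 under R 4.3.3: expression filter (minimum count 10, minimum total 15), TMM factors of 0.979 to 1.02, and the two-sided quasi-likelihood test on all libraries without a block, with Benjamini-Hochberg adjustment over 14216 genes. A standard error is the log2 fold change divided by the square root of F. Genes at or under 3 counts (0.221 to 0.231 CPM) count as not detected, which covers counting error only. Genomic spans came from RefSeq (GRCr8) for 92.0% of tested genes, and the length adjustment was a lowess trend (span 0.3) as an offset. Of 13 purine synthesis names 12 were matched; the counts hold a row Adssl1 that the RefSeq synonyms do not link to the unmatched Adss1. Scripts were tested on simulated counts. Alternatives used DESeq2 1.42.0 and limma 3.58.1 (voom).

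Genes were named by rule: the 9 enzymes, Tug1, Atf4, Nfe2l2, Myc and Mthfd2l, the 3 called genes of each other list with the smallest p, and the 3 nearest to Phgdh. Gmps, Atic, Adssl1, Myod1, Cd68, Pdgfra, the cardiac markers and the collagen genes were named after their values were seen. The same holds for Atf5, Sesn2, Gdf15, Keap1, Eif2ak4, Mtor, Pgam2 and Eno3. The 9 enzymes and all lists were chosen with earlier results of these data known, and the promoter motifs after the values were seen.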

Additional observations from a re-analysis of the deposited data

How the results depend on the processing

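All 9 enzymes kept their direction in each of the 16 alternatives fixed with the design. Of 144 combinations of enzyme and alternative, 131 kept their status as called or not called, and 13 lost a call. All 13 were for Mthfd2, Mthfd1l and Aldh1l2. Psph and Shmt1 stayed not called throughout, so their combinations are among the 131. Mthfd2 lost its call with library totals (-0.11), DESeq2's Wald test (-0.16), an adjusted p under 0.01 (-0.16) and the gene length offset (-0.0853, and -0.0843 when the replicate block was added). It ranged from -0.21 to -0.10 when each library was left out, and lost its call without control replicates 1 and 3 and knockdown replicates 1 and 3. Under the length offset, first alone and then joined by the block, Mthfd1l was at 0.0834 and 0.0853, Aldh1l2 at 0.13 and 0.13, and 4 enzymes were called in place of 7. The glycine list had 3 called genes at an adjusted p under 0.01 and 4 to 6 when a library was left out (4 without control replicate 1). The transporter list had 5 called genes under the length offset in both forms. Apart from the stricter threshold, what lay behind these lost and changed calls was not tested.

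Libraries that share a replicate number were not treated as pairs in the main test. Once each gene was centred within its group, the correlations across genes between such libraries were -0.00519, 0.0288 and 0.0258. With 3 libraries per group, these values cannot show whether such libraries were handled together. A fit with a replicate block called 8848 genes instead of 8773 and changed the call of none of the 9 enzymes. Leaving out a library gave Phgdh values of 1.01 to 1.14, and the Psat1 to Phgdh difference ran from -1.57 to -1.47. After the data were seen, the length trend was also taken from the ratios: the Mthfd1l to Mthfd1 difference moved from 0.64 to 0.46 and the Mthfd2 to Mthfd1 difference from 0.0816 to 0.29, while the Psat1 to Phgdh difference was -1.48. Counting Adssl1 as Adss1, also chosen after the data were seen, gave 12 called purine genes in place of 11. Ratios by coding length were not run, as protein sequences were not used here.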
